A study of Mus musculus with 23 samples.

Results

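The effect of losing FNDC5 was examined in the long bones of female mice on a control diet. The comparison took 6 of the 23 bone RNA libraries of the study, 3 from FNDC5 global knockout (KO) females and 3 from wildtype (WT) females, each from 1 mouse. Of the 21402 genes in the normalized read count table, 15638 had a normalized count of 10 or more in at least 2 of the 23 libraries and were tested. All mice were 5 months old, of the strain C57BL/6 in the labels (substrain C57BL/6J in the methods), and had received a diet with 0.6% calcium for 2 weeks. The KO mice were homozygous offspring of heterozygous breeders, carried no tissue-specific Cre and lacked part of exon 3 of *Fndc5* in every tissue. The study also sequenced males and a diet with 0.01% calcium, in 17 further libraries that entered the fit of the spread. Among them, the WT females on the low-calcium diet stood apart by low mapping percentages given in the methods, and mice 16 and 17 of that group had 11256675 and 7217601 reads assigned to genes, the fewest of the 23 libraries. RNA came from the shafts of tibia and femur after flushing of the marrow and digestion of the bone surface with collagenase and trypsin-EDTA, so that osteocytes embedded in the bone were the intended cells. The WT mice are numbered 1, 14 and 32 and the KO mice 4, 19 and 20. Counts are listed in these orders throughout, as normalized counts per library.

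*Fndc5* encodes a membrane protein of muscle and other tissues whose extracellular part is cleaved and released as irisin, a hormone that circulates after exercise. Irisin binds integrins containing the alpha V subunit, and osteocytes, the long-lived cells within mineralized bone, respond to it with altered expression of sclerostin and RANKL, which govern bone formation and resorption. Osteocytes can also remove mineral from their surroundings when calcium is in demand, and the control diet places no such demand on the skeleton.

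Between 19709110 and 32779575 reads per library were assigned to genes in the 6 libraries. The correlation of log2 values between libraries was 0.981 to 0.989 within the genotypes and 0.976 to 0.985 between them. Replicate libraries differed by 3.71 to 15.3 times the variance expected from counting alone, over 11206 genes. The osteocyte markers *Sost*, *Dmp1*, *Mepe* and *Phex* were abundant in all 6 libraries, yet the 15 osteocyte genes summed to 39443 to 63658 normalized counts, against 336555 to 674740 for 19 neutrophil genes and 143856 to 188230 for 16 erythroid genes. Genes of marrow cells were thus abundant in the bone chips of both genotypes.

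*Fndc5* itself was close to the detection limit in bone. The WT females had 4.43, 1.91 and 7.31 normalized counts and the KO females 0, 0.602 and 0. These values rest on 16 reads in the WT and 1 read in the KO libraries, a ratio of 18 with an exact counting interval of 2.80 to 755, and the genotypes did not overlap. The fitted log2 fold change (KO minus WT, of normalized count + 1, as throughout) was -2.12 ± 0.88 (SE), with an adjusted p = 0.461 in limma. Because gene counts also include exons outside the deleted part, the read count is a limited check of genotype, and KO females on the low-calcium diet held 13 reads. The integrin subunits that receive irisin were abundant and overlapped between genotypes. The alpha V subunit *Itgav* had 3759.9, 3872 and 3808 in WT and 2829, 3803 and 3834 in KO females. The log2 fold change was -0.14 for *Itgav*, -0.04 for its partner *Itgb5* and 0.21 for *Itgb3*.

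No gene passed an adjusted p of 0.05 in limma, which is 0% of the 15638 tested, and the smallest adjusted p was 0.0759. Without adjustment, 1510 genes had p under 0.05. Of these, 721 were higher in KO (4.61% of the genes tested) and 789 were lower (5.05%). The genotypes did not overlap for 1182 genes with higher counts in every KO mouse (7.56%) and for 1518 genes with lower counts in every KO mouse (9.71%). At the thresholds used in the study, an unadjusted p under 0.01 and a log2 fold change past 1, limma listed 45 genes (0.288%), 11 higher and 34 lower in KO. The median log2 fold change over all genes was -0.005. On whole reads recovered from the table, edgeR's quasi-likelihood test also called 0 genes (1613 with unadjusted p under 0.05), while DESeq2 called 23, of which 4 were higher and 19 lower in KO. Library quality weights in limma raised the count to 638, with WT mouse 1 alone given a weight of 10.3. The count at unadjusted p under 0.05 was 712 without KO mouse 4, 760 without WT mouse 32 and 2098 without KO mouse 20, and the count of 45 became 69 without KO mouse 20. The differences below are therefore given as values, and the words higher and lower describe these 6 mice. Counts of list members at unadjusted p under 0.05 are to be read beside the shares of 4.61% higher and 5.05% lower.

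Cartilage genes showed the widest separation between the genotypes. All 11 chondrocyte genes tested had lower mean counts in KO females, 7 of them with unadjusted p under 0.05 and with genotypes that did not overlap. The shares lower over all genes were 5.05% and 9.71%. The median log2 fold change of the 11 genes was -1.99 against -0.005 for all genes. *Acan*, which encodes aggrecan, the main proteoglycan of cartilage, had 459.9, 483 and 401 in WT and 42.5, 10.8 and 119 in KO females. The 3 WT mice were within a narrow band, every KO mouse lay far below it, and the log2 fold change was -3.50 ± 1.11 (adjusted p = 0.354 in limma). *Hapln1*, the link protein that fastens aggrecan to hyaluronan, had 243, 206 and 184 in WT and 19.8, 15.7 and 50.1 in KO (log2 fold change -3.02). *Prg4*, the lubricin of joint surfaces, had 1501, 1974 and 838 in WT and 59.3, 82.5 and 311 in KO, with the KO mice again all lower (log2 fold change -3.54).

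*Col10a1*, the collagen of hypertrophic chondrocytes, had the lowest fold change of the 15638 genes. Its counts were 266, 306 and 87.7 in WT and 0, 3.01 and 10.4 in KO females. The reads numbered 728 in WT and 17 in KO libraries, a ratio of 48.2 with a counting interval of 29.9 to 83.1. The fitted log2 fold change was -5.76 ± 1.25 (limma adjusted p = 0.273), and it was among the genes called by DESeq2. *Clec3a*, a cartilage C-type lectin, had 976, 886 and 1098 in WT and 26.7, 15.1 and 79.4 in KO (log2 fold change -4.90). *Cytl1*, a small secreted protein made by chondrocytes, had 429, 578 and 219 in WT and 18.8, 7.83 and 16.4 in KO (log2 fold change -4.71) and was also called by DESeq2.

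The other members followed the same order with smaller steps. *Comp*, a pentameric matrix protein of cartilage and tendon, had 1490.5, 1053 and 1973 in WT and 321, 369 and 585 in KO (log2 fold change -1.82). *Chad*, a leucine-rich chondrocyte adhesion protein, had a log2 fold change of -2.58, and *Sox9*, the master transcription factor of chondrocytes, had 178, 138 and 199 in WT and 39.5, 54.2 and 58.7 in KO (log2 fold change -1.74). The type IX collagen chains *Col9a2* and *Col9a3*, which decorate cartilage fibrils, had log2 fold changes of -2.37 and -0.93, both without overlap. *Cilp*, an intermediate layer protein of cartilage that had been placed with the periosteum and tendon genes, had 852, 990.2 and 922 in WT and 83.0, 207 and 321 in KO (log2 fold change -2.37, adjusted p = 0.596 in limma). *Col2a1*, the main fibrillar collagen of cartilage, did not share the separation, with 5624, 5343 and 5547 in WT and 3471, 4345 and 5802 in KO and a log2 fold change of -0.31. *Lect1*, a chondrocyte-derived inhibitor of vessel growth, overlapped as well (log2 fold change -1.99). *Matn3* and *Ucma* were too low to be tested.

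The summed count of the 11 genes of the chondrocyte list was 11188 to 11645 in WT and 4165 to 7443 in KO females, and 1474 to 34347 over the 17 libraries of the other groups. Leaving out 1 mouse at a time gave a median log2 fold change of -2.50 to -1.81 and left 7 or 8 members with unadjusted p under 0.05. The sum was 10467 to 19918 in WT females on the low-calcium diet, where *Col2a1* alone reached 18934 in mouse 16. By the mean log2 level of the 11 genes, WT females stood at 7.60 to 8.10 on the control diet and 5.67 to 6.62 on the low-calcium diet. Of the 17 other libraries, only WT male 24 on the control diet (8.92) was above the WT females on the control diet. The KO females, at 5.00 to 6.12, lay within the 3.83 to 7.27 of the remaining libraries. *Acan*, *Clec3a*, *Cytl1*, *Comp*, *Chad*, *Col9a2* and *Cilp* were each below the lowest WT female in 16 of the 17 other libraries. In that order, 11, 9, 3, 10, 12, 14 and 12 of the 17 were at or below the highest KO female. The highest value of each of these genes in those 17 libraries belonged to WT male 24 on the control diet. The number below the lowest WT female was 15 for *Hapln1*, *Prg4* and *Col9a3*, and 14 for *Col10a1* and *Sox9*. It was 13 for *Lect1* and 12 for *Col2a1*. In these bulk samples fewer cells of a type and less RNA per cell cannot be told apart, and the amount of cartilage left on each shaft is not recorded in the labels, so its part in these values was not tested. The median log2 fold change of the list for KO minus WT was -0.79 in males on the control diet, -0.65 in females on the low-calcium diet and -0.43 in males on the low-calcium diet. The males on the control diet overlapped by genotype. Their mean log2 levels of the list were 6.23, 8.92 and 5.74 in WT males 7, 24 and 25. In KO males 10, 27 and 28 they were 5.05, 6.63 and 7.27.

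**Figure D1:**
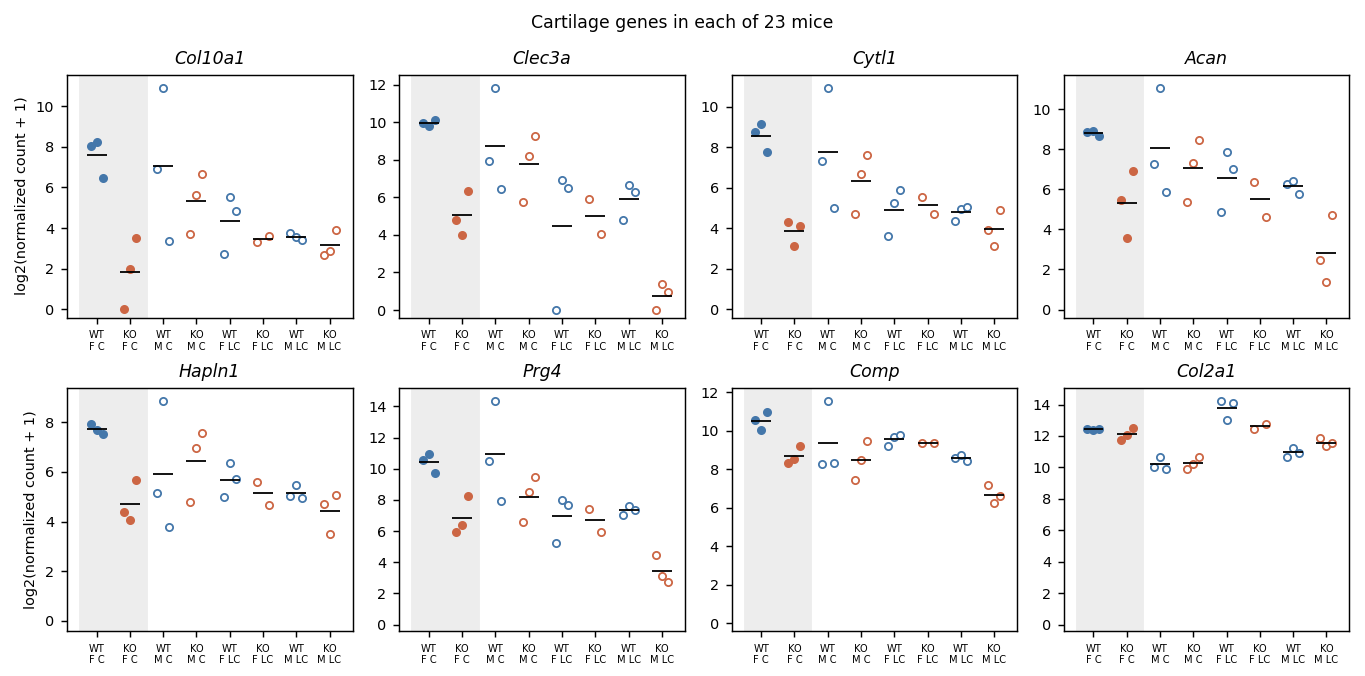
Log2 normalized count + 1 of 8 cartilage genes in each of the 23 mice, with the mean of each group as a bar. WT is blue and KO is orange, F and M are females and males, and C and LC are the control and low-calcium diets. The shaded females on the control diet separate by genotype for every gene shown except *Col2a1*, and WT females on the control diet were at or above most libraries of the other groups for those 7 genes.

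Collagen chains were examined as a list that also holds the cartilage types II, IX, X and XI. Of 29 collagen genes tested, 28 had a mean lower in KO, 4 with unadjusted p under 0.05, and the median log2 fold change was -0.43. Of the 22 chains outside those types, 21 had a lower mean, 1 (*Col27a1*) had unadjusted p under 0.05, 3 did not overlap, and the median was -0.40. *Col1a1*, the main chain of bone collagen, had 230541, 236903 and 225912 in WT and 126678, 126428 and 233255 in KO females. KO mice 4 and 19 were low and KO mouse 20 was at the WT level, so the groups overlapped (log2 fold change -0.57, limma adjusted p = 0.532). Without KO mouse 20 the count with unadjusted p under 0.05 was 12 instead of 4, and it was 2 without WT mouse 1 or KO mouse 19. The basement membrane chains *Col4a1* and *Col4a2* did not overlap between genotypes, with log2 fold changes of -0.40 and -0.43.

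The inducible heat shock proteins of the HSP70 family were lower in all 3 KO females. *Hspa1b* had 803, 452 and 1304 in WT and 96.8, 186 and 221 in KO, and *Hspa1a* had 609, 390.0 and 981 in WT and 108, 211 and 154 in KO. The WT mice varied widely but remained above every KO mouse. The log2 fold change was -2.29 ± 0.54 for *Hspa1b* (adjusted p = 0.274 in limma) and -2.01 ± 0.49 for *Hspa1a* (adjusted p = 0.274). These genes are near-identical neighbours, and since the authors counted uniquely mapped reads, the split of reads between them is uncertain. *Hsph1*, an HSP110 co-chaperone that exchanges the nucleotide of HSP70, had 783, 578 and 1046 in WT and 508, 555 and 468 in KO without overlap (log2 fold change -0.61). *Bag3*, another HSP70 co-chaperone, overlapped (log2 fold change -0.52), and *Ahsa1*, an activator of the HSP90 ATPase, was higher in KO (log2 fold change 0.21).

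Heat shock genes are switched on by the factor HSF1, which binds repeats of a short element in their promoters. The promoters of the 3 lowest heat shock genes are shown because these members were lower together, 250 bases before to 50 bases after the start, 5′ to 3′ on the gene's strand, from RefSeq (GRCm38.p6). Capitals mark every match to GAANNTTC or TTCNNGAA, which were searched on both strands and can overlap each other.
Hspa1a: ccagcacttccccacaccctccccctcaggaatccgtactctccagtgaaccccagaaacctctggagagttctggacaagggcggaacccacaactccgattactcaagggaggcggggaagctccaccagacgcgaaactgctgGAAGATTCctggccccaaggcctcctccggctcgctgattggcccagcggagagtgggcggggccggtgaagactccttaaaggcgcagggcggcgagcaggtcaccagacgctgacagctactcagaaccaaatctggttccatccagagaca
Hspa1b: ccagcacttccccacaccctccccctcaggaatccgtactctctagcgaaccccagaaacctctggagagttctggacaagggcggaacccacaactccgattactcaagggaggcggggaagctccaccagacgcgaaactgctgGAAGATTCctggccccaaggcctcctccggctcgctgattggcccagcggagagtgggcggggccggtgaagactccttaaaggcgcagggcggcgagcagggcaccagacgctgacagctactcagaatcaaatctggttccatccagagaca
Hsph1: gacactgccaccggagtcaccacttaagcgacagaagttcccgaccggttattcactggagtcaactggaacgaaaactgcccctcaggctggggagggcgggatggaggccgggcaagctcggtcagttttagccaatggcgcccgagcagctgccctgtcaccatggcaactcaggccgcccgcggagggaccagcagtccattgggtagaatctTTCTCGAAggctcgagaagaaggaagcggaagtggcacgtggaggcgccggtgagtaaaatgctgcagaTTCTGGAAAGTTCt
The *Hspa1a* promoter lies at chr17:34972107-34972406 and that of *Hspa1b* at chr17:34959189-34959488, both on the minus strand, and they share 296 of 300 positions. Each held 1 match, beginning 104 bases before the start. The *Hsph1* promoter at chr5:149636287-149636586, also on the minus strand, held 3 matches, the first 33 bases before the start. Of the 18 heat shock genes tested, 14 had a promoter in the table and 10 of these held a match, against 4587 of 27025 promoters of all genes (16.97%).

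The heat shock list as a whole leaned the same way by smaller amounts, with a median log2 fold change of -0.13. Of its 18 members, 15 had a lower and 3 a higher mean in KO, and 4 were lower without overlap (9.71% over all genes). At unadjusted p under 0.05, 3 were lower and 1 was higher (5.05% and 4.61% over all genes). The count of lower members at that threshold was 2 to 3 when 1 mouse was left out, apart from 5 without WT mouse 14. In the 17 other libraries *Hspa1b* had a median of 1806 and a range of 135 to 7249, and 2 of these libraries were at or below the highest KO female. KO minus WT in males on the control diet gave log2 fold changes of -2.18 for *Hspa1b* and -1.49 for *Hspa1a*, against 0.65 and 0.25 in females on the low-calcium diet.

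Single genes of secreted matrix-associated and inflammatory proteins were lower in KO, while most members of the lists they belong to were not past the threshold. *Ctgf* and *Cyr61* encode matricellular proteins of the CCN family and are targets of mechanical signalling through YAP. *Ctgf* had 2543, 2361 and 2992 in WT and 798, 1223 and 1702 in KO (log2 fold change -1.14 ± 0.30, limma adjusted p = 0.318). *Cyr61* had 4339, 3897 and 5379 in WT and 1739, 1937 and 3410.2 in KO (log2 fold change -0.99). For both genes each KO mouse was below each WT mouse, and KO mouse 20 was the nearest to the WT level. *Tfpi2*, a secreted inhibitor of matrix-degrading serine proteases, had 169, 124 and 231 in WT and 53.4, 74.1 and 82.0 in KO (log2 fold change -1.29) and was called by DESeq2. *Adamts4*, a protease that cleaves aggrecan, had 263, 131 and 366 in WT and 64.2, 83.1 and 111 in KO (log2 fold change -1.46). The related proteases *Adamts1* and *Adamts5* had log2 fold changes of -0.75 and -0.32, both without overlap. Of 25 MMP, ADAMTS and TIMP genes, 3 were lower and 1 was higher at unadjusted p under 0.05 (5.05% and 4.61% over all genes). The lower count was 1 without WT mouse 1, WT mouse 32 or KO mouse 4.

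*Cxcl10*, an interferon-induced chemokine that attracts T cells, had 343, 249 and 488 in WT and 116, 174 and 159 in KO. The KO mice lay together below the WT mice, with a log2 fold change of -1.23 ± 0.24 (95% confidence interval -1.74 to -0.72, adjusted p = 0.193 in limma), and DESeq2 called it. It was alone among the 25 interferon-induced genes in having an unadjusted p under 0.05, and the median of that list was -0.02. *Il6*, an inflammatory cytokine, had 266, 142 and 294 in WT and 109.7, 122 and 120.0 in KO (log2 fold change -0.93). *Socs3*, the feedback inhibitor of cytokine signalling that IL-6 induces, had a log2 fold change of -0.60. *Maff*, a small MAF transcription factor of the immediate early genes, had 464, 386 and 539 in WT and 233, 252 and 282 in KO (log2 fold change -0.85). At unadjusted p under 0.05 the acute phase list held 3 lower members of 18 and the immediate early list 2 of 21, where 5.05% of all genes would give about 1 in each. The acute phase count was 5 without WT mouse 14, 0 without KO mouse 4 and 1 without WT mouse 1, WT mouse 32 or KO mouse 20, and the immediate early count was 6 without KO mouse 19 and 1 without WT mouse 32, KO mouse 4 or KO mouse 20.

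Among genes of calcium sensing and transport, the receptor by which parathyroid and kidney cells sense extracellular calcium, *Casr*, was nearly undetected in KO females. It had 41.6, 26.8 and 31.7 in WT and 0, 0.602 and 0 in KO. These values rest on 114 reads in WT and 1 read in KO libraries, a ratio of 128 with a counting interval of 22.6 to 5108. The fitted log2 fold change was -4.85 ± 0.95 (adjusted p = 0.193 in limma), and DESeq2 called it. In the 17 other libraries, 16 were below the lowest WT female and 8 were at or below the highest KO female, and the highest, at 51.4, was WT male 24 on the control diet, the library that was also highest for the cartilage genes. Whether the cartilage on the shafts had a part in the *Casr* values was not tested. The contrast of KO minus WT had the opposite sign in males on the control diet (log2 fold change 1.46) and in females on the low-calcium diet (1.79).

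*Cacna1h*, the pore subunit of a T-type voltage-gated calcium channel, had 275, 263 and 297 in WT and 192, 204 and 167 in KO females. The genotypes were separate, with a log2 fold change of -0.57 ± 0.14 (limma adjusted p = 0.274), and DESeq2 called it. All 17 other libraries were below the lowest of these WT females. *Piezo1*, a stretch-activated cation channel through which bone cells sense load, had 3556, 3275 and 4065 in WT and 2416, 2928 and 2924 in KO (log2 fold change -0.40). *Atp2b4*, a plasma membrane calcium pump, had 6868, 6836 and 6769 in WT and 4842, 5588 and 6001 in KO (log2 fold change -0.32), while its relative *Atp2b3* had 5.32, 1.91 and 8.94 in WT and 0 in every KO mouse, at least 7.12-fold lower against a floor of 3 reads over the KO group. *Vdr*, the vitamin D receptor, and *Pth1r*, the parathyroid hormone receptor, overlapped between genotypes with log2 fold changes of -0.46 and -0.34. Of the 21 genes on this list, 5 were lower and 0 higher at unadjusted p under 0.05 (5.05% and 4.61% over all genes). The lower count was 3 without KO mouse 4, and the median log2 fold change was -0.18. Without overlap, 6 were lower and 1 was higher (9.71% and 7.56% over all genes).

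Several genes of macrophages were higher in KO females. *Gpnmb*, a transmembrane glycoprotein of lipid-laden macrophages and osteoclasts, had 202, 315 and 139.7 in WT and 540.4, 503 and 564 in KO. All KO mice lay above all WT mice, with a log2 fold change of 1.36 ± 0.25 (95% confidence interval 0.84 to 1.89, adjusted p = 0.166 in limma). *Lipa*, the lysosomal acid lipase that frees cholesterol and fatty acids, had 1435, 1555 and 1169.9 in WT and 2058, 2005 and 2052 in KO. The KO mice were nearly equal, the log2 fold change was 0.57 ± 0.09, and the limma adjusted p = 0.0759 was the smallest of all genes. Without WT mouse 14, limma gave both genes an adjusted p of 0.0124, and DESeq2 called both with all mice. Leaving out any other mouse gave limma adjusted p values of 0.114 to 0.934 for *Gpnmb* and 0.0805 to 0.841 for *Lipa*. Both were highest without WT mouse 32. All 17 other libraries had less *Lipa* than any of these KO females. *Gpnmb* differed in this respect, with a median of 738 and a range of 59.8 to 1455 in those libraries. Of the 17, 5 were at or below the highest KO female and 3 were below the lowest WT female for *Gpnmb*.

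The complement subunits *C1qb* and *C1qc*, made by tissue macrophages, were higher as well. *C1qb* had 855, 909.9 and 812 in WT and 1162, 990.2 and 1357 in KO (log2 fold change 0.43), and *C1qc* had a log2 fold change of 0.48. The high-affinity IgG receptor *Fcgr1* had a log2 fold change of 0.49, and the lysosomal protease *Ctsd* one of 0.25. Of 17 macrophage genes, 5 were higher at unadjusted p under 0.05 (4.61% over all genes) and 16 had a higher mean, with a median log2 fold change of 0.24. Without WT mouse 1, WT mouse 32 or KO mouse 20 the count was 2.

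Megakaryocyte and platelet genes were higher in KO females across their list. All 12 had a higher mean, and the median log2 fold change was 0.38. Of these, 8 did not overlap (7.56% higher over all genes) and 5 had unadjusted p under 0.05 (4.61% higher over all genes). *Pf4*, a chemokine of platelet granules, had 1707, 1918 and 1444 in WT and 3096, 2163 and 2564 in KO (log2 fold change 0.62). *Ppbp*, which encodes another granule chemokine, had 14664, 17860.4 and 10260.3 in WT and 22854, 19864 and 21764 in KO (log2 fold change 0.63). *Clec1b*, the platelet receptor CLEC-2, had 747, 829 and 589 in WT and 1257, 968 and 1209.8 in KO (log2 fold change 0.67, limma adjusted p = 0.289). The collagen receptor *Gp6* had a log2 fold change of 0.55. WT mouse 32 was the lowest of the 6 mice for each of these 4 genes, and without it the median was lower but positive, at 0.27, with 3 members at unadjusted p under 0.05. The summed count of the list was 25793 to 36719 in WT and 39507 to 44405 in KO females.

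Lymphoid and myeloid lists gave fewer members past this threshold. *Igll1*, a surrogate light chain of early B cells, had 243, 242 and 206 in WT and 385, 327 and 632 in KO (log2 fold change 0.90, called by DESeq2). *Dntt*, the template-free polymerase of lymphocyte precursors, had a log2 fold change of 0.55 with overlap, and KO mouse 20 was the highest for both genes. *Cd4*, the coreceptor of helper T cells, had 376, 386 and 342 in WT and 496, 478 and 603 in KO (log2 fold change 0.51). Of 19 neutrophil genes, *S100a9*, a calprotectin subunit, and *Ctsg*, a granule protease, were higher at unadjusted p under 0.05 (4.61% over all genes), and none was without overlap. *S100a9* had 38868, 37996 and 31839 in WT and 72249, 64409 and 30564 in KO, with KO mice 4 and 19 high and KO mouse 20 below the WT mice. The neutrophil count was 16 without KO mouse 20, 1 without KO mouse 19 and 0 without WT mouse 32 or KO mouse 4.

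Most red cell genes had lower means in KO. Of 16 erythroid genes tested, 14 had a lower and 2 a higher mean, 10 were lower in every KO mouse than in any WT mouse (9.71% over all genes) and 3 had unadjusted p under 0.05 (5.05% over all genes), with a median log2 fold change of -0.20. *Sptb*, the spectrin beta chain of the red cell skeleton, had 10929, 10857 and 11039 in WT and 6853, 8888 and 9255 in KO (log2 fold change -0.41). The blood group protein *Ermap* and the anion exchanger *Slc4a1* had log2 fold changes of -0.35 and -0.31. Without KO mouse 4 no erythroid gene had an unadjusted p under 0.05. The alpha globin genes and the beta globin gene *Hbb-bs* were below the filter, and *Hbb-bt* was not among the counted genes.

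Endothelial genes were mostly lower, with 16 of 18 means lower in KO, 4 at unadjusted p under 0.05 (5.05% over all genes) and a median log2 fold change of -0.27. *Stab2*, a scavenger receptor of sinusoids, had 3389, 2805 and 4306 in WT and 2399, 1985 and 3300.5 in KO with overlap (log2 fold change -0.46). *Mmrn2*, an endothelial matrix glycoprotein, had 774, 664 and 918 in WT and 532, 585 and 619 in KO without overlap (log2 fold change -0.43), and *Robo4* and *Eng*, a guidance receptor and a coreceptor of TGF-beta on vessels, had log2 fold changes of -0.47 and -0.35. *Flt4*, the receptor VEGFR-3 of lymphatic and sinusoidal vessels, had 1111, 1081 and 1200.0 in WT and 699, 693 and 838 in KO (log2 fold change -0.61) and was called by DESeq2. The list count was 0 without WT mouse 32, 1 without KO mouse 4 and 6 without WT mouse 14.

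**Figure D2:**
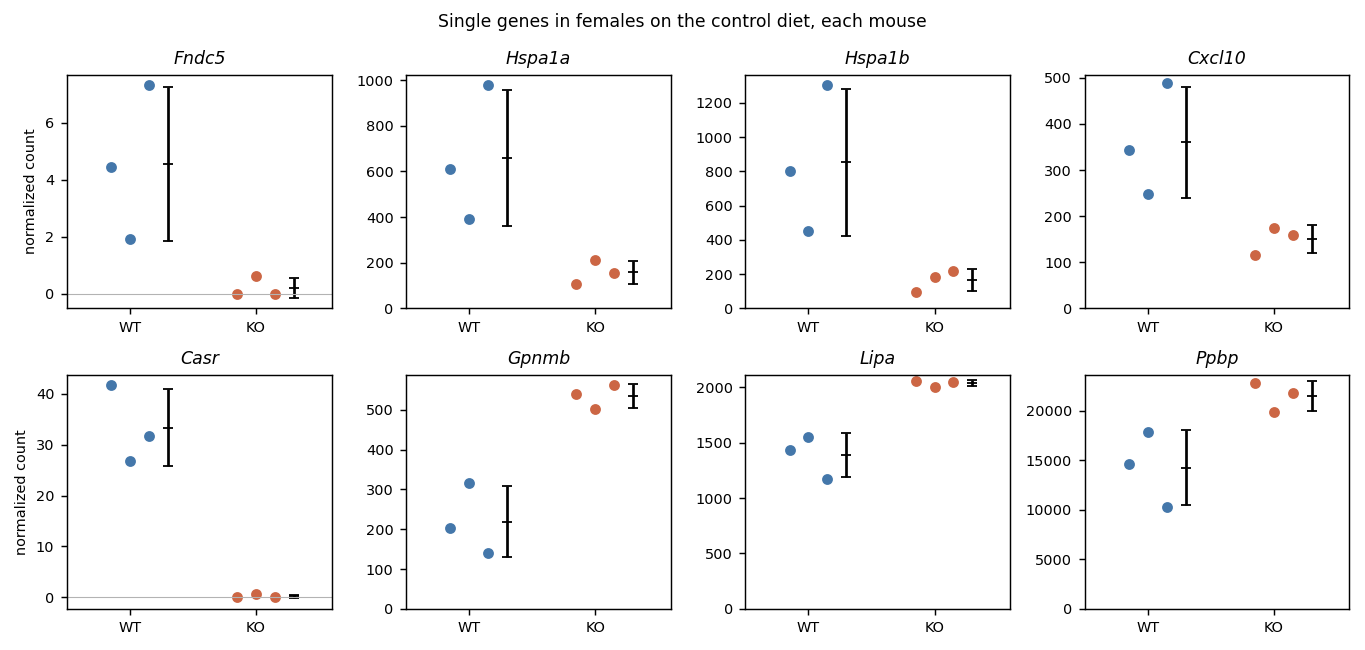
Normalized counts of 8 genes in each female on the control diet, with the mean ± SD of each genotype (n = 3). *Fndc5*, *Hspa1a*, *Hspa1b*, *Cxcl10* and *Casr* were lower and *Gpnmb*, *Lipa* and *Ppbp* were higher in every KO mouse (orange) than in any WT mouse (blue).

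Genes of the protein-making machinery and of mitochondrial respiration were shifted upward together by small amounts. All 47 cytosolic ribosomal protein genes tested had a higher mean in KO, 25 with unadjusted p under 0.05 (4.61% over all genes), and the median log2 fold change was 0.22. *Rps18*, of the small subunit, had 3647, 3712 and 3467 in WT and 5953, 4634 and 4255 in KO (log2 fold change 0.44), and KO mouse 4 was the highest. *Rps24*, also of the small subunit, and *Rpl38* and *Rpl10*, of the large subunit, had log2 fold changes of 0.36, 0.33 and 0.27, all without overlap. Without KO mouse 4 the count was 4, without WT mouse 32 it was 11, without KO mouse 20 it was 33, and the median over the mice left out ranged from 0.11 to 0.30. Of 34 genes of the respiratory chain and ATP synthase, 13 were higher at unadjusted p under 0.05 (4.61% over all genes), with a median log2 fold change of 0.21. *Uqcrb*, a subunit of complex III, had 1253, 1259 and 1063 in WT and 1841, 1537 and 1361 in KO (log2 fold change 0.40), and *Ndufv2* of complex I and *Cox7b* of complex IV had log2 fold changes of 0.35 and 0.41. That count was 1 without KO mouse 4 and 2 without WT mouse 32.

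Transcript length moved with these values. The ribosomal protein genes had a median transcript length of 1106 bases and the respiratory genes 1536, against 3268 for all genes tested. Over all genes, the median log2 fold change was 0.12 in the shortest quintile of transcripts and -0.07 in the longest, and -0.08 and 0.04 in males on the control diet. By GC content it was 0.03 in the lowest quintile and -0.07 in the highest. After each library was corrected for transcript length and GC content, 15 ribosomal and 5 respiratory genes were higher at unadjusted p under 0.05, and the count over all genes was 906, of which 519 were higher. The precursor of ribosomal RNA, *Rn45s*, took 3.27% to 4.37% of the counts in WT and 1.89% to 2.67% in KO females (log2 fold change -0.71, adjusted p = 0.385 in limma). The part of these library properties in the gene differences was not tested further. Of the 11 genes of the chondrocyte list, 8 were lower at unadjusted p under 0.05 after the correction.

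**Figure D3:**
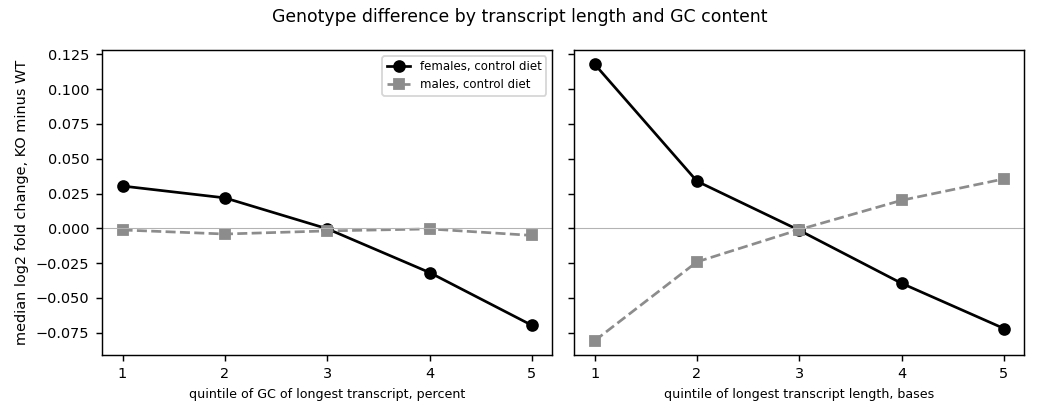
Median log2 fold change (KO minus WT) of the genes in each quintile of GC content (left) and of transcript length (right), for females (black) and males (gray) on the control diet. In females the median ran from 0.12 in the shortest to -0.07 in the longest transcripts, and in males from -0.08 to 0.04.

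The genes that define osteocytes were not separated by genotype. *Sost*, which encodes the Wnt inhibitor sclerostin, had 7958, 7398 and 8734 in WT and 8307, 14948 and 10221 in KO females, with overlap and a log2 fold change of 0.43 (95% confidence interval -0.37 to 1.23). *Dmp1*, a matrix protein needed for mineralization, had 10277, 6111 and 14411 in WT and 6331, 10128 and 8111 in KO (log2 fold change -0.27). *Mepe* and *Phex*, which act in phosphate and mineral regulation, had log2 fold changes of 0.43 and 0.31, also with overlap. *Dkk1*, another Wnt inhibitor, was higher in each KO mouse, with 317, 404 and 318 in WT and 460.4, 870.3 and 454 in KO (log2 fold change 0.72, limma adjusted p = 0.487). Of the 15 osteocyte genes *Dkk1* alone had an unadjusted p under 0.05, and the median log2 fold change was 0.06.

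Bone formation and resorption genes gave few members with unadjusted p under 0.05, though most means were lower in KO. Of 27 bone formation genes 22 had a lower mean, and of 28 osteoclast genes 21 had. The median log2 fold changes were -0.18 and -0.13, and -0.06 and 0.004 without KO mouse 4. *Spp1*, the mineral-binding protein osteopontin, had 9793, 9918 and 9428 in WT and 4325, 9587 and 7921 in KO, with overlap (log2 fold change -0.49). It was the single member of 27 bone formation genes with unadjusted p under 0.05. *Tnfsf11*, which encodes the osteoclast-inducing ligand RANKL, had 248, 209 and 275 in WT and 140.3, 123 and 218 in KO, where KO mouse 20 overlapped the WT range (log2 fold change -0.64, limma adjusted p = 0.495). *Tcirg1*, a subunit of the proton pump with which osteoclasts acidify bone, had 2378, 2497 and 2467 in WT and 2135, 2234 and 2001 in KO without overlap (log2 fold change -0.21). Of 28 osteoclast genes 2 were lower at unadjusted p under 0.05 (5.05% over all genes), and 7 without KO mouse 20, while leaving out another mouse gave 1 to 3. The Wnt list had 1 higher member of 28, which was *Dkk1*, and the TGF-beta and BMP list 0 of 27. Of 19 genes of the IGF system, the receptor substrate *Irs2*, the clearance receptor *Igf2r* and the serum binding subunit *Igfals* were lower (log2 fold changes -0.42, -0.25 and -1.43). This count of 3 (5.05% over all genes) was 0 without WT mouse 32 or KO mouse 4 and 5 without KO mouse 20.

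Liver-type transcripts were scarce in the females on the control diet and gave mixed differences. The antiprotease gene *Serpina1d* had 39.9, 59.3 and 26.8 in WT and 0, 6.63 and 2.59 in KO (log2 fold change -3.76), and its neighbour *Serpina1a* had 12.4, 25.8 and 13.0 in WT and 0, 3.01 and 0 in KO (log2 fold change -3.43). These genes belong to a family of close copies, so the assignment of reads among them is uncertain. Serum albumin, *Alb*, had 46.1, 9.56 and 8.94 in WT and 4.94, 149 and 13.8 in KO, with KO mouse 19 the highest, and its log2 fold change of 0.47 became -0.86 without that mouse. *Masp1*, a protease of the lectin pathway of complement, had 0.886, 1.91 and 0.812 in WT and 15.8, 8.43 and 8.64 in KO (log2 fold change 2.42). *Upp2*, a uridine phosphorylase, had 0 in every WT mouse and 2.96, 5.42 and 24.2 in KO, at least 11.9-fold higher against a floor of 3 reads over the WT group. The median log2 fold change of 28 hepatocyte genes was 0.39, and -0.12 without KO mouse 19. The 24 skeletal muscle genes had a median of 0.12 with 1 higher and 1 lower member at unadjusted p under 0.05.

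Among genes of fat and energy metabolism, the list of fatty acid synthesis and oxidation gave counts near those over all genes. Of 14 adipocyte genes, 13 had a lower and 1 a higher mean in KO, with a median log2 fold change of -0.22. In that list 3 were lower without overlap (9.71% over all genes) and 1 was lower at unadjusted p under 0.05 (5.05%). *Plin4*, a lipid droplet coat protein of adipocytes, had 274, 249 and 355 in WT and 114, 122 and 215 in KO (log2 fold change -1.002), while *Plin1*, the main droplet coat of fat cells, overlapped (log2 fold change -1.07). *Fasn*, the fatty acid synthase, had 2228, 2103 and 2176 in WT and 1768, 1579 and 1857 in KO (log2 fold change -0.32), and *Acaca*, which makes the malonyl-CoA it uses, had a log2 fold change of -0.21. *Cpt1a*, which admits fatty acids to mitochondria for oxidation, had 2139, 2151 and 2003 in WT and 2564, 2692 and 2518 in KO (log2 fold change 0.30), and *Etfb*, an electron carrier of the same pathway, one of 0.37. All 4 were without overlap. Of 30 genes of fatty acid synthesis and oxidation these 2 were lower and 2 higher at unadjusted p under 0.05, close to the 5.05% and 4.61% of all genes, and leaving out 1 mouse gave 1 to 4 lower and 0 to 3 higher, with 0 reached without WT mouse 32. The sterol-sensing factor *Srebf2* had a log2 fold change of -0.22. Of 27 genes of hypoxia and glycolysis 3 were higher and 4 lower at unadjusted p under 0.05, above the shares of all genes, with a median of -0.02. Among them were *Pfkfb3*, a kinase that promotes glycolysis (log2 fold change -0.28), and *Ldha* and *Gapdh*, enzymes of glycolysis (0.26 and 0.29, both with overlap). Without WT mouse 32 or KO mouse 4 each of these counts was 1, and without KO mouse 20 there were 7 higher members.

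Clock, hormone and niche genes completed the named members. The clock repressors *Per1* and *Per2* had log2 fold changes of -0.45 and -0.33, and the clock output factor *Dbp* was higher, with 285, 328 and 264 in WT and 368, 435 and 415 in KO (log2 fold change 0.47). The time of day of collection is not in the labels, and its part was not tested. The prolactin receptor *Prlr* had 90.4, 81.2 and 97.5 in WT and 39.5, 33.7 and 67.4 in KO (log2 fold change -0.98), and the estrogen-induced gene *Greb1* had 242, 299 and 184 in WT and 67.2, 56.0 and 368 in KO, with KO mouse 20 above the WT mice. *Csf1*, the growth factor of macrophages and osteoclasts, had 2144, 1881 and 2263 in WT and 999, 1776 and 1750.4 in KO (log2 fold change -0.52). Of 16 marrow stroma and niche genes, 9 had a lower and 7 a higher mean, 2 were lower and 2 higher at unadjusted p under 0.05, and the median log2 fold change was -0.07. The higher members were the vessel factor *Angpt1* (0.30, without overlap) and the leptin receptor *Lepr* (0.35, with overlap). *Tnfrsf1b*, a receptor of tumor necrosis factor, had 2609, 2387 and 2826 in WT and 1838, 2197 and 1924 in KO (log2 fold change -0.39, limma adjusted p = 0.166).

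Several genes of low count had large fold changes. *Mfi2*, the iron-binding membrane protein melanotransferrin, had 62.9, 36.3 and 84.5 in WT and 0.988, 0.602 and 2.59 in KO, from 213 and 5 reads (log2 fold change -4.71 ± 1.09), and DESeq2 called it. Of the 17 other libraries, 15 were below the lowest WT female and 6 at or below the highest KO female for *Mfi2*. The highest, at 219, was WT male 24 on the control diet, as for *Casr*, and a part of cartilage in the *Mfi2* values was not tested. *Slc38a3*, a glutamine transporter, had 17.7, 21.0 and 11.4 in WT and 0, 0 and 3.45 in KO (log2 fold change -3.39), and *Sim2*, a transcription factor, had a log2 fold change of -3.15. Among genes higher in KO, *Dock3*, an exchange factor of the GTPase RAC, had 11.5, 16.2 and 14.6 in WT and 52.4, 31.9 and 42.3 in KO (log2 fold change 1.498). *Lefty1*, an extracellular inhibitor of nodal signalling, had 21.3, 22.9 and 13.8 in WT and 46.4, 31.9 and 43.2 in KO (log2 fold change 1.04), and *Fam19a1*, a small secreted protein, had a log2 fold change of 2.21.

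**Figure D4:**
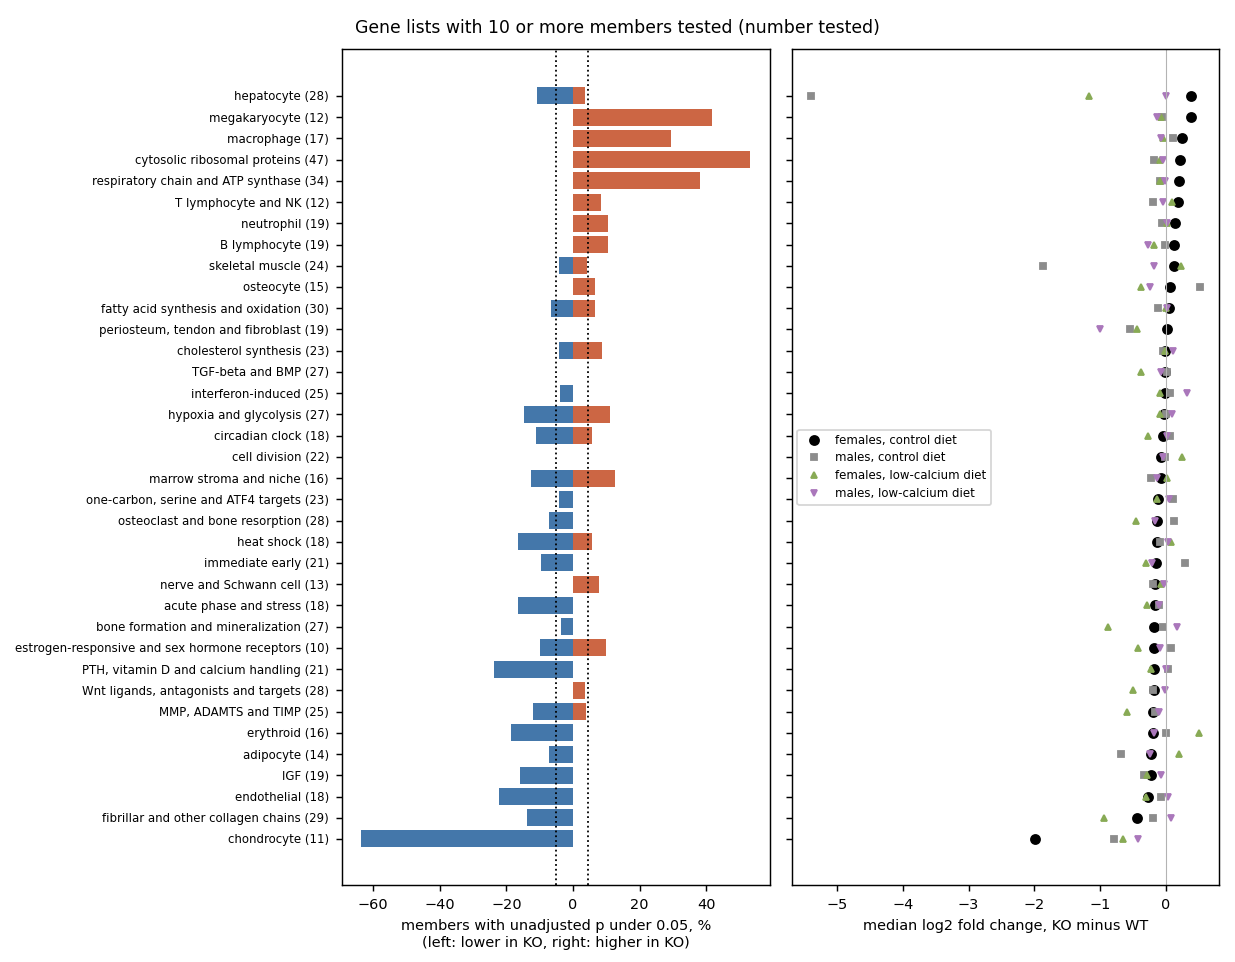
Gene lists with 10 or more members tested. Left, the percentage of members lower (blue) and higher (orange) in KO at unadjusted p under 0.05 in limma, with dotted lines at 5.05% and 4.61%, the shares over all genes tested. Right, the median log2 fold change of each list in females on the control diet (black) and for the same contrast in the 3 other combinations of sex and diet. The chondrocyte list lay at -1.99 and the megakaryocyte list at 0.38 in females on the control diet.

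Genes beside the targeted locus were examined, since KO and WT littermates of a targeted line can differ around the gene. *Fndc5* lies at chr4:129136870-129144593 in RefSeq (GRCm38.p6). Of 49 other genes tested within 2 Mb of it, 2 had unadjusted p under 0.05 and 0 had p under 0.01, with log2 fold changes from -1.22 to 0.72. At 2 to 5 Mb, 14 of 100 genes had p under 0.05 and 3 had p under 0.01. At 5 to 10 Mb the numbers were 15 of 123 and 1, and the lowest log2 fold change was that of *Col9a2* (-2.37). The share at p under 0.05 was 7.82% at 10 to 20 Mb and 9.53% farther away. The part of a linked segment in these values was not tested. On other chromosomes 9.64% of 14612 genes had p under 0.05, and all 45 genes past the thresholds of the study were there.

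**Figure D5:**
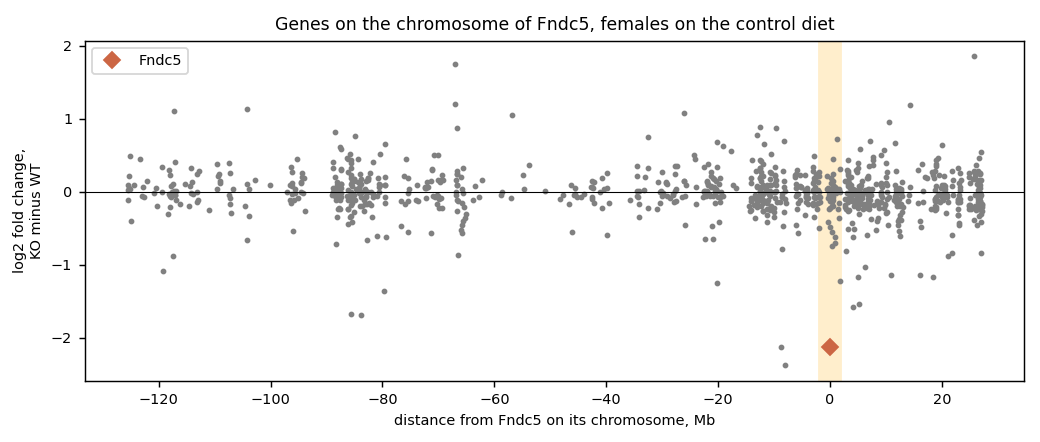
Log2 fold change (KO minus WT) of each gene tested on chromosome 4 against its distance from *Fndc5*, for females on the control diet. The shaded band spans 2 Mb on each side of *Fndc5* (diamond, log2 fold change -2.12), and the 49 other genes in it ranged from -1.22 to 0.72.

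The same genotype contrast was available in mice that are not part of this comparison. In limma 72 genes were called in males on the control diet, 194 in females on the low-calcium diet and 1 in males on the low-calcium diet. Of the 45 genes past the thresholds of the study in females on the control diet, 29 had the same sign in males on the control diet, 28 in females on the low-calcium diet and 30 in males on the low-calcium diet, against 43.2%, 48.3% and 49.97% of all genes. *Gpnmb* was higher in KO females on the low-calcium diet as well (log2 fold change 1.94) and stood at -0.06 in males on the control diet. *Ctgf* had a log2 fold change of -1.11 in females on the low-calcium diet and 0.11 in males on the control diet. *Cacna1h* stood at -0.65 and 0.50 in the same order. The ribosomal protein list had medians of -0.17, -0.08 and -0.04 in the 3 other strata.

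The difference of the genotype effect between females and males on the control diet was significant in limma for 12 genes (0.0767%), of which 9 are made by the liver and were highest, among the 17 other libraries, in WT male 24 on the control diet. The number was 0 in edgeR and 107 in DESeq2, and with the hepatocyte and muscle lists as covariates it was 26, all negative, where 11 of the 12 were positive. These covariates carry the level of liver genes, so that fit cannot decide on the 9 genes made by the liver. *Cacna1h* was one of the other 3, with -0.57 in females and 0.50 in males (adjusted p = 0.0321). The lymphocyte growth factor *Il7* had log2 fold changes of 0.41 and -1.14 (adjusted p = 0.047), and *Ttn*, the giant muscle protein titin, had 0.32 and -1.89 (adjusted p = 0.0259). Between the control and low-calcium diets in females the effect differed for 2 genes (0.0128%). *Ergic1*, a protein of the membranes between endoplasmic reticulum and Golgi, had log2 fold changes of 0.27 on the control and -0.44 on the low-calcium diet (limma adjusted p = 0.0227). The clone-named gene *5830415F09Rik* had -0.66 and 0.59 (limma adjusted p = 0.043). When WT mouse 1 or 32, KO mouse 4 or 19, or mouse 5 of the KO females on the low-calcium diet was left out, 0 genes differed between diets, and the number was 5 without mouse 6 of the latter group and 848 without mouse 17 of the WT females on the low-calcium diet, the library with the fewest reads. The number differing between sexes was 2 to 6 when WT mouse 1, 14 or 32, KO mouse 19, WT male 7 or KO male 10 or 27 was left out, and 152 without WT male 25.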

How the data were processed

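RNA from the bone shafts of each mouse was sequenced by the authors as paired-end, strand-specific libraries. The submitters' processing notes name FastQC 0.11.5 for read quality and STAR 2.7.10a for alignment, on mm10. The authors counted only unique alignments on the sense strand with featureCounts, and which gene models they used is not stated in the labels or the paper. The deposited values are normalized counts, a signal the authors made by dividing reads by a size factor per library, and 100% of values were whole multiples (within 0.01 read) of what 1 read is worth in their library. Groups and mouse numbers were taken from the sample titles. A KO female on the control diet that the authors left out of their table was not analysed here.

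Genes with 10 or more normalized counts in 2 or more of 23 libraries were tested with limma 3.58.1 (R 4.3.3) on log2(normalized count + 1), with 1 mean for each of 8 groups, a trended prior and Benjamini-Hochberg adjustment at 0.05. The pseudocount understates fold changes of low genes. Rank tests over 3 and 3 mice cannot go below a two-sided exact p of 0.1 and were not used. The count tests edgeR 4.0.16 (quasi-likelihood) and DESeq2 1.42.0 were run on the recovered whole reads as alternatives; the 8-group DESeq2 fit called 23 genes. Counting intervals are exact at 95% and cover counting error only. Tables and plots used Python 3.11.15, numpy 2.4.6, pandas 2.3.3 and matplotlib 3.10.9. Symbols were matched to RefSeq (GRCm38.p6), 20403 by symbol and 907 by synonym, with 92 unmatched; 27 symbols turned into dates and 2 repeated symbols were not named.

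Genes were named by a rule: *Fndc5*, the 12 largest differences in each direction past the thresholds of the study, and up to 4 members with the smallest p in each of 38 gene lists. The comparison, the lists and the rule were chosen with earlier results of these data known. *Comp*, *Chad*, *Sox9*, *Lect1*, *Hsph1*, *Ctgf*, *Cyr61*, *Tfpi2*, *Vdr*, *Slc4a1*, *Elane*, *Sost*, *Mepe*, *Alb*, *Lipa*, *Tnfrsf1b*, *Flt4*, *Rn45s*, *Ergic1*, *5830415F09Rik*, *Col4a1*, *Col4a2*, *Atp2b3*, *Il7*, *Ttn* and the liver genes that differed between sexes were added after their values were seen. Lists are described by counts and medians, with no test of a list.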

Additional observations from a re-analysis of the deposited data

Results flagged for a closer look

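For 12 genes the effect of FNDC5 loss in females on the control diet differed from that in males on the control diet by a test of the difference itself (limma, adjusted p under 0.05). The values below are log2 differences, females minus males. For *Cacna1h* it was -1.07, with lower values in KO than WT females and higher values in KO than WT males. For *Il7* it was 1.55 and for the muscle gene *Ttn* 2.21. The other 9 genes are made by hepatocytes, and the difference was 8.15 for *Cps1*, 7.43 for *Mat1a*, 8.08 for *Hrg*, 7.08 for *Fga*, 7.17 for *Mup3*, 6.02 for *Azgp1*, 6.13 for *Mug1*, 8.35 for *Pzp* and 8.08 for *Tat*. In the 6 females on the control diet these 9 genes were at 0 to 34.9 normalized counts, whereas WT male 24 on the control diet held 180 (*Azgp1*) to 1825 (*Fga*), the highest of the other 17 libraries for each. The mean log2 level of the 28 hepatocyte genes was 9.81 in that male, 7.08 and 6.57 in the other WT males on the control diet, 2.83 to 2.92 in the KO males on that diet and 2.29 to 3.74 in the 6 females. Their summed counts were 61134, 31459 and 24472 in the WT males, 21594 to 24789 in the KO males and 13247 to 22113 in the females. With the hepatocyte and muscle lists as covariates none of the differences called was positive. That fit removes the mean level of the hepatocyte list, which split the males on the control diet by genotype, so it cannot decide on the liver genes.

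For 2 genes the effect differed between the control and the low-calcium diet in females (limma, adjusted p under 0.05). The log2 difference, control minus low-calcium diet, was 0.71 for *Ergic1* and -1.25 for *5830415F09Rik*.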

How the results depend on the processing

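For FNDC5 loss in females on the control diet, limma called 0 genes, and the count was also 0 with a pseudocount of 5, with a filter of 50 counts in 3 libraries, in edgeR and after the length and GC correction. It was 5 with no filter, 1 with quantile normalization, 23 in DESeq2, 638 with library quality weights, 21 with the hepatocyte and muscle lists as covariates, 31 with the neutrophil and erythroid lists and 5 with the 6 libraries alone. The thresholds of the study gave 45 genes in limma and 51 in DESeq2. Settings chosen after the data were seen were DESeq2 on 6 libraries (70 genes, or 72 at the thresholds of the study), the length and GC correction (906 genes at unadjusted p under 0.05) and the counts at unadjusted thresholds without single mice (712 to 2098 genes at p under 0.05, 31 to 69 past the thresholds of the study). Leaving out 1 mouse gave 0 to 2 calls.

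The difference between sexes involved 12 genes. It was 31 with a pseudocount of 5, 48 with no filter, 6 with the stricter filter, 30 with quantile normalization, 0 in edgeR, 107 in DESeq2, 860 with quality weights, 26 with the hepatocyte and muscle covariates (all 26 negative), 4 with the neutrophil and erythroid covariates and 2 to 152 without 1 mouse. The difference between diets involved 2 genes, and 4 with no filter, 65 with quantile normalization, 593 in DESeq2, 1744 with quality weights, 314 and 15 with the covariate pairs, 0 to 848 without 1 mouse and 1107 without WT mice 16 and 17 on the low-calcium diet. The cause of these shifts was not tested.

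Of 134 single genes, 72 passed the threshold with quality weights, 14 in DESeq2 and 0 in edgeR. Signs turned for *Itgav* (-0.22 to 0.00208 without 1 mouse), *Itgb5* (-0.19 to 0.0906 without 1 mouse, 0.0300 with the neutrophil and erythroid covariates, 0.0605 after the length and GC correction), *Dmp1* (-0.60 to 0.0211 without 1 mouse), *Alb* (-0.86 to 1.47 without 1 mouse), *Ttn* (-3.1e-05 to 0.56 without 1 mouse), *Azgp1* (0 to 0.45 without 1 mouse), *Fga* (-0.23 with the neutrophil and erythroid covariates) and *Rn45s* (0 with quantile normalization). Rescaling moved the median of all genes by under 0.1. No paired analysis was possible because the mouse numbers are not shared between groups.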
